A study of Mus musculus with 12 samples.

Results

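Cd9 and 6 other tetraspanins, Cd37, Cd53, Cd63, Cd81, Cd82 and Cd151, were followed over 12 arrays of mouse thymocytes. Every probe set that the platform annotation pairs with one of these 7 symbols was taken. The 7 genes had 12 of the 12422 probe sets that are not controls, and none is shared with a gene of another symbol. 9 of the 12, from 6 genes, were bright enough to be among the 8695 probe sets tested. Cd9 was chosen by its measured level, which had differed between groups HY_high and HY_low in an earlier reading of these arrays, by 1.76 on the log2 scale. Its values are therefore given as a description with no test, and the other genes of the family carry the tests.

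The arrays measured total RNA of thymocytes on day 6 of reaggregate thymic organ culture (RTOC), in which dissociated thymic stroma and immature thymocytes are packed together and grown as a small organ. Group HY_high held cells with the HY-TCR and Smcy peptide at 1e-05 M. Group HY_low held cells with the same receptor and the peptide at 1e-07 M. Group OT1 held cells with the OT1-TCR, and no peptide is named for it. Each group had 4 arrays, and the sample titles number them 1 to 4 within each group. The HY receptor recognises a peptide of the male-specific protein Smcy, and the OT1 receptor recognises a peptide of ovalbumin. Receptor and peptide differ together between either HY group and OT1, so they cannot be told apart there, and the titles also give the HY groups letters of their own that the labels do not explain. Strain, age, sex, any sort or pooling, and whether the arrays of a group came from separate cultures are not stated in the labels, so a p-value here speaks of the spread from array to array, which may be technical. In such bulk RNA, fewer cells of a type and less RNA per cell cannot be told apart.

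Tetraspanins are small membrane proteins that cross the membrane several times and gather integrins, immunoglobulin-family proteins and other receptors into patches called tetraspanin-enriched microdomains. In lymphocytes they are known for shaping adhesion, receptor signalling and the traffic of receptors between the surface and endosomes. Several of them, Cd9, Cd63 and Cd81 among them, are also common markers of extracellular vesicles.

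The 250 bases before the annotated start of 3 members are shown as RefSeq gives them in GRCm38.p6, read 5′ to 3′ on each gene's own strand. Cd9 is shown because it had the largest share of its variance between the groups among the 9 tested probe sets of the family. That share is favoured by the way Cd9 was chosen. Cd37 and Cd53 are shown because they had the largest shares between the array numbers. Capitals mark the GC box letters GGGCGG, a motif bound by Sp1.
Cd9 promoter, chr6:125494761-125495010, minus strand: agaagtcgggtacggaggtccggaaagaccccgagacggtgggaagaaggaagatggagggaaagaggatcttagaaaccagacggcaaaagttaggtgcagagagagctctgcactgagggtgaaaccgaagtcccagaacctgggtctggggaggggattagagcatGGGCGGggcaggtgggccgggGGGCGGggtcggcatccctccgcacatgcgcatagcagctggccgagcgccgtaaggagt
Cd37 promoter, chr7:45238840-45239089, minus strand: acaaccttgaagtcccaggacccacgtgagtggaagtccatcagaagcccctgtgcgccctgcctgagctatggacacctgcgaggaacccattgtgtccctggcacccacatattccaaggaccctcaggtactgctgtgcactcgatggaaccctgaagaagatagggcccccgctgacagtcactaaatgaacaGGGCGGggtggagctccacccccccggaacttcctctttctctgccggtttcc
Cd53 promoter, chr3:106790150-106790399, minus strand: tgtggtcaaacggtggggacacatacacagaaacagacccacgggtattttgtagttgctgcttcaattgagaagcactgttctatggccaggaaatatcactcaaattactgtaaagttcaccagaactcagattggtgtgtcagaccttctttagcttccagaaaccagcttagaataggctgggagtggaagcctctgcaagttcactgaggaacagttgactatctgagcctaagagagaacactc
The Cd9 window held 16 CG dinucleotides and 61.6% G and C, with GC boxes beginning 81 and 60 bases before the start. Cd37 had 8 CG dinucleotides, 58.8% G and C and 1 GC box at 53 bases, while Cd53 had 2 CG dinucleotides, 45.2% G and C and no GC box. Over the 32851 windows of the same length in the table, the median was 6 CG dinucleotides, and 32.7% held GGGCGG on either strand. All 7 genes matched the table, with 11 windows in all, and 6 of the 11 held it. The E box letters CAGGTG, on either strand, were found in 17.2% of all windows and in 5 of the 11, at 73 bases before the start of Cd9 and at 175 bases before that of Cd37. Ets site letters CCGGAA, again on either strand, were in 12% of all windows and in 2 of the 11, at 231 bases for Cd9 and 30 bases for Cd37. The TATA box letters TATAAA were in 0 of the 11 and in 12.4% of all windows, on either strand. For the AP-1 site, with letters TGACTCA, it was 0 of the 11 and 4.46% of all. The Nr4a site, with letters AAAGGTCA, was likewise in 0 of the 11, against 1.34% of all. A match in these windows is a description of letters and no evidence of binding.

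Cd9, which partners integrins and immunoglobulin-family proteins on many blood cells and on gametes, was brightest in HY_high. Its probe set, 95661_at, read 20.6, 122, 42.8 and 54.6 on HY_high arrays 1 to 4, with a geometric mean of 49.3 (SD 1.06 on the log2 scale, n = 4). HY_low arrays 1 to 4 read 5.68, 24.0, 14.01 and 23.2, with a geometric mean of 14.5 (SD 0.97, n = 4). OT1 arrays 1 to 4 read 8.93, 14.3, 14.1 and 12.2, with a geometric mean of 12.2 (SD 0.32, n = 4). HY_high stood above OT1 on all 4 arrays without overlap, but HY_high array 1 lay below HY_low arrays 2 and 4, so the HY groups overlapped.

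The order of the group means of Cd9 was HY_high, HY_low, OT1. The difference of HY_high from HY_low was 1.76 ± 0.56 (SE) on the log2 scale, a ratio of 3.40, and within array numbers 1 to 4 it was 1.86, 2.35, 1.61 and 1.23. HY_high exceeded OT1 by 2.02 ± 0.56, a ratio of 4.05, with 1.21, 3.09, 1.60 and 2.17 within the numbers. HY_low and OT1 were neighbours that did not differ beyond their spread, at 0.25 ± 0.56, and the sign was mixed within the numbers, at -0.65, 0.74, -0.01 and 0.93. These comparisons share arrays with the contrast through which Cd9 was picked, so no test is attached to any of them. For scale, 0.311% of the 8695 tested probe sets had a difference of HY_high from HY_low at least as high as that of Cd9, 0.61% had one of HY_high from OT1, and 29.4% had one of HY_low from OT1. HY_high was higher within all 4 numbers for 9.81% of tested probe sets against HY_low and for 10.4% against OT1, and it stood above OT1 without overlap for 1.52%.

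**Figure D1:**
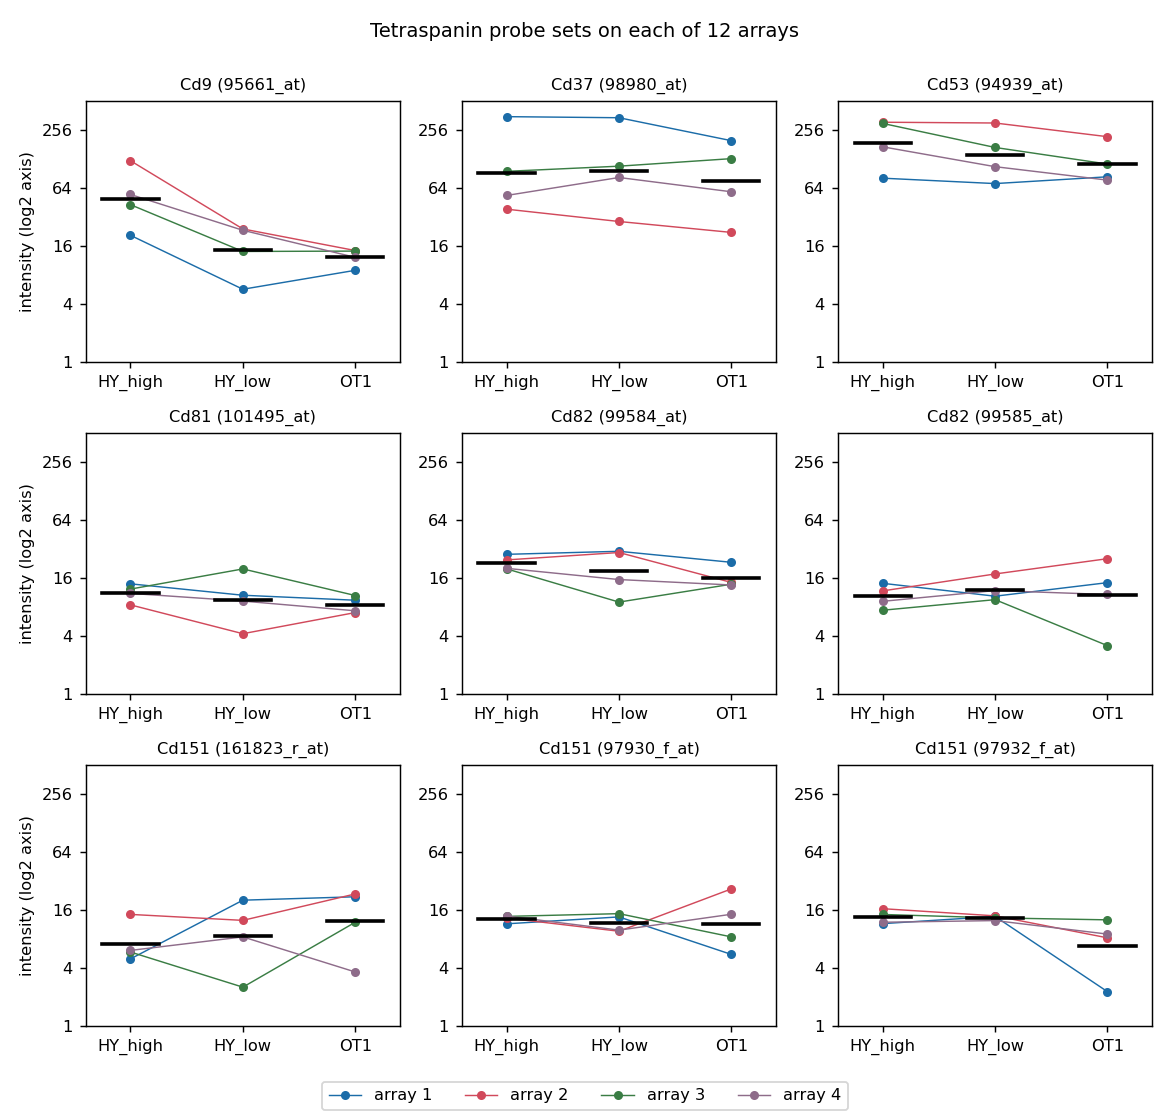
Intensity (log2 axis) of the 9 tested probe sets of the family on each of the 12 arrays, with groups along the horizontal axis, a line joining the arrays of 1 number and a black bar at each group's geometric mean. The Cd9 bar is at 49.3 in HY_high, 14.5 in HY_low and 12.2 in OT1, while the Cd37 lines lie far apart by array number and overlap between groups.

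None of the 8 tested probe sets of the 5 other genes passed an adjusted p of 0.05 in limma, a moderated linear model fitted to all 8695 probe sets, in any comparison. Over all tested probe sets, 0.023% passed for HY_high against HY_low, 0.023% for HY_low against OT1 and 0.173% for HY_high against OT1, so 0 of 8 is near the background. With the array number as a replicate block, 0.345%, 0.092% and 1.36% of all tested probe sets passed, and still 0 of the 8. Unadjusted p-values under 0.05 were found for 0 of the 8 in each comparison, against 2.96%, 2.65% and 4.08% of all tested probe sets. With the block they were found for 0, 1 and 2 of the 8, against 11.1%, 8.37% and 11.7%. Without the block the adjusted p-values of the 8 ran from 0.999665 to 0.999961. Differences of the 8 ran from -0.27 to 0.43 on the log2 scale for HY_high against HY_low, with a median of 0.08, against 0.01 over all tested probe sets. For HY_low against OT1 they ran from -0.51 to 0.97 with a median of 0.21, against 0.01, and for HY_high against OT1 from -0.78 to 0.99 with a median of 0.34, against 0.02.

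**Figure D2:**
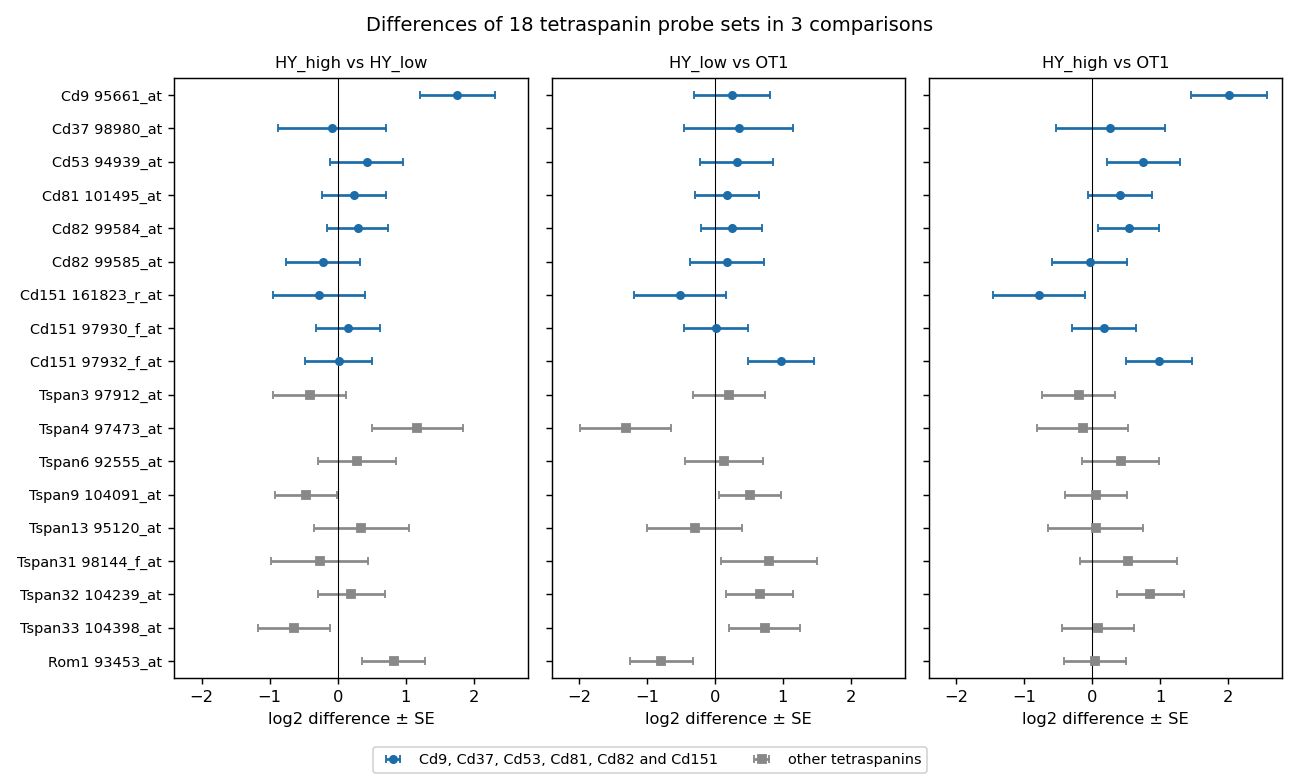
Log2 difference (point) and its SE (bar) for the 9 tested probe sets of Cd9, Cd37, Cd53, Cd81, Cd82 and Cd151 (circles) and for 9 probe sets of other tetraspanins (squares), in each of the 3 comparisons. Cd9 lies at 1.76 against HY_low and 2.02 against OT1, and the other members lie between -0.78 and 0.99.

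Cd37 and Cd53 are largely restricted to white blood cells, where Cd37 is known to restrain T cell proliferation and Cd53 is present on most leukocytes. The Cd37 probe set, 98980_at, read 351, 38.5, 94.95 and 53.4 on HY_high arrays 1 to 4. HY_low arrays read 342, 28.7, 107 and 82.0, and OT1 arrays read 197, 22.1, 129 and 58.3. Array 1 was highest and array 2 lowest in all 3 groups, and the groups overlapped over nearly their whole range. The Cd37 difference was -0.08 for HY_high against HY_low (95% interval -1.77 to 1.60), 0.35 for HY_low against OT1 (-1.34 to 2.04) and 0.27 for HY_high against OT1 (-1.42 to 1.95). None passed in limma. With the array number as a block the intervals were narrower, at -0.60 to 0.43, -0.16 to 0.86 and -0.25 to 0.78 in the same order of comparisons, and none of these passed either.

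Cd53, by probe set 94939_at, read 80.6, 307, 298 and 171 on HY_high arrays 1 to 4. HY_low arrays read 70.9, 301, 168 and 106, and OT1 arrays read 83.4, 217, 113 and 77.0. Array 2 was highest in every group, and the groups overlapped. Group means of 188, 139.7 and 112 in HY_high, HY_low and OT1 stood in the same order as those of Cd9. For Cd53, HY_high differed from HY_low by 0.43 (-0.70 to 1.57) and was higher within all 4 numbers, by 0.19, 0.03, 0.83 and 0.68. It did not pass in limma, with adjusted p = 0.521 under the replicate block. From OT1 it differed by 0.75 (-0.39 to 1.88), higher within 3 of 4 numbers, and did not pass, with adjusted p = 0.146 under the block, the lowest of any of the 8 probe sets. The HY_low difference from OT1 was 0.32 (-0.82 to 1.45). With the block, the intervals of these 3 differences, in the order given, were -0.05 to 0.92, 0.27 to 1.23 and -0.17 to 0.80. That of HY_high against OT1 left out 0, before any adjustment over the tested probe sets.

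The array number took up most of the variation of both. Of the variance of log2 intensity over the 12 arrays, 94.2% of that of Cd37 and 75.0% of that of Cd53 lay between array numbers, and 1.44% and 15.3% lay between groups. For Cd9, 59.8% lay between groups and 31.4% between numbers. Cd9 was chosen by its difference between HY_high and HY_low, so a high share between groups follows from that choice and is a description. Medians over all tested probe sets were 10.7% between groups and 52.8% between numbers. The geometric mean over the 3 arrays of a number was 287, 29.0, 109 and 63.4 for Cd37 and 78.1, 272, 178 and 112 for Cd53, in the order of numbers 1 to 4, so that the pair ran in opposite order at numbers 1 and 2. Cd9 was lowest at number 1 and highest at number 2 in each group. The 2 controls of RNA quality with probe sets at both ends of the transcript each separated some numbers and overlapped at others. The Gapdh control's 3′ probe set stood above its 5′ one, on the log2 scale, by 4.57 to 4.87 at number 1, 5.60 to 6.26 at number 2, 4.69 to 5.48 at number 3 and 2.95 to 3.27 at number 4. The same gap of the actin control was 2.59 to 3.60, 2.02 to 2.99, 2.74 to 3.39 and 2.15 to 2.54 in the order of numbers 1 to 4. Number 4 thus lay below numbers 1 and 3 for actin, and the other ranges overlapped. Both controls had a gap of 2.02 or more on every array. The part of either gap in the values of Cd9, Cd37, Cd53 and the other members was not tested.

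**Figure D3:**
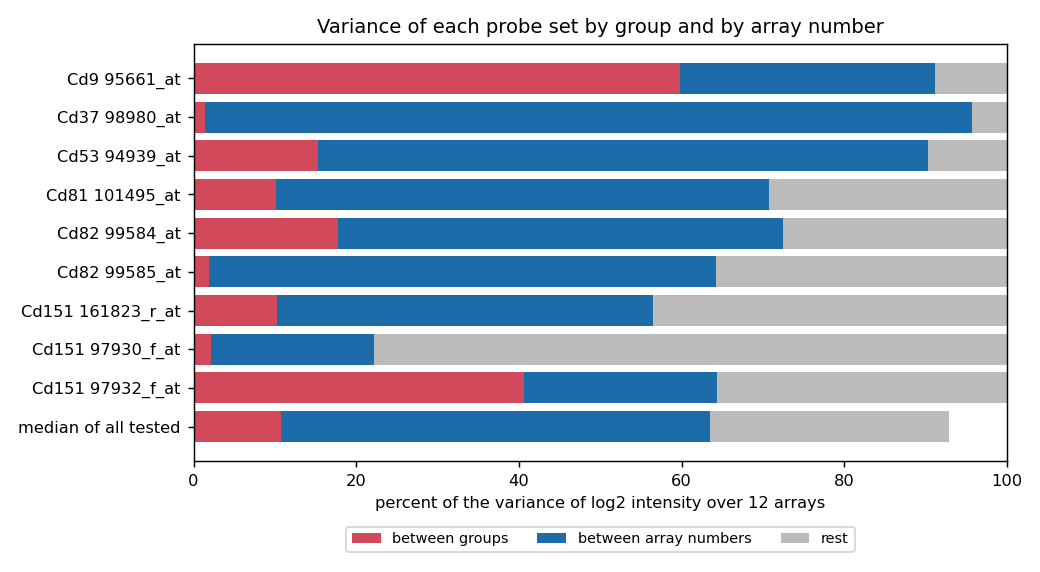
Percent of the variance of log2 intensity over 12 arrays that lay between groups, between array numbers and in the rest, for each tested member. The bottom bar stacks the medians over all tested probe sets, which need not sum to 100. Cd9, which was chosen by a difference between groups, has 59.8% between groups, and Cd37 has 94.2% between numbers.

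Across the 12 arrays Cd9 ran with Cd53 (Pearson r = 0.71) and against Cd37 (r = -0.48). With each array number's mean taken off, Cd9 and Cd53 stayed at r = 0.72, Cd9 and Cd37 moved to 0.27, and Cd37 and Cd53 moved to -0.21, against -0.72 before. The arrays share groups, numbers and scaling, so these are descriptions without a test.

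Cd81 and Cd82 are broadly expressed. Cd81 is known for costimulating T cells, and Cd82 for linking T cell adhesion to the actin skeleton and for restraining cell migration. Cd81, by probe set 101495_at, read 13.9, 8.42, 12.3 and 11.1 on HY_high arrays 1 to 4, 10.6, 4.23, 19.9 and 9.22 on HY_low arrays, and 9.41, 7.01, 10.5 and 7.31 on OT1 arrays. Array 2 was lowest in each group, and the groups overlapped. HY_high was above OT1 within all 4 numbers, by 0.41 (-0.58 to 1.41), and did not pass in limma, with adjusted p = 0.702 under the block. Its difference from HY_low was 0.24 (-0.76 to 1.23), and that of HY_low from OT1 was 0.17 (-0.82 to 1.17).

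Cd82 has 3 probe sets, which did not run alike. The first, 99584_at, read 28.2, 24.6, 19.9 and 20.2 on HY_high arrays 1 to 4, 30.3, 29.4, 9 and 15.4 on HY_low arrays, and 23.3, 14.4, 13.8 and 13.5 on OT1 arrays. HY_high exceeded OT1 within all 4 numbers, by 0.54 (-0.41 to 1.48), without passing in limma, with adjusted p = 0.516 under the block, and array 1 of OT1 lay within the HY_high range. A second set, 99585_at, read 14.1, 11.8, 7.41 and 9.17 on HY_high arrays, 10.4, 17.6, 9.54 and 11.9 on HY_low arrays, and 14.3, 25.4, 3.18 and 10.8 on OT1 arrays. The difference of HY_high from OT1 was -0.04 (-1.19 to 1.12) in that set, lower within 3 of 4 numbers, so the 2 sets gave opposite signs. Against HY_low, HY_high differed by 0.29 (-0.65 to 1.24) in 99584_at and by -0.22 (-1.37 to 0.94) in 99585_at. Over the 12 arrays the correlation between the 2 sets was 0.28, and with the number means taken off it was -0.46. The other set, 161861_i_at, was at 1, the lowest value in the files, on 10 of 12 arrays, reached 1.24 at most, and was not tested.

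Cd151 is known as the partner of laminin-binding integrins, and Cd63 as a protein of late endosomes, lysosomes and the vesicles they release. Of the 4 Cd151 probe sets, 97931_i_at was at 1 on all 12 arrays and was not tested. The set 97932_f_at read 11.6, 16.6, 14.4 and 11.97 on HY_high arrays 1 to 4, 13.8, 13.95, 13.3 and 12.5 on HY_low arrays, and 2.28, 8.25, 12.7 and 9.02 on OT1 arrays. Both HY groups had tight values, and 3 of the OT1 arrays lay below all of them, with OT1 array 3 inside their range. HY_high exceeded OT1 by 0.99 (-0.05 to 2.02) and HY_low exceeded it by 0.97 (-0.06 to 2.01), each within all 4 numbers. The unadjusted p was 0.0606 for the HY_high difference and 0.0640 for the HY_low difference, and neither passed in limma after adjustment. With the replicate block the intervals were 0.17 to 1.80 for HY_high and 0.16 to 1.79 for HY_low, which left out 0 before any adjustment. The adjusted p with the block was 0.299 for HY_high and 0.480 for HY_low. For scale, HY_low was higher than OT1 within all 4 numbers for 9.73% of all tested probe sets.

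The other tested Cd151 sets did not share that pattern. Set 97930_f_at read 11.5, 13.3, 13.8 and 13.9 on HY_high arrays, 13.6, 9.66, 14.7 and 9.92 on HY_low arrays, and 5.55, 26.6, 8.44 and 14.5 on OT1 arrays, with a difference of HY_high from OT1 of 0.17 (-0.82 to 1.17). Set 161823_r_at read 4.99, 14.4, 5.88 and 6.11 on HY_high arrays, 20.3, 12.5, 2.54 and 8.44 on HY_low arrays, and 22.0, 23.5, 11.98 and 3.65 on OT1 arrays, with a difference of -0.78 (-2.21 to 0.64). For HY_high against OT1 the 3 sets thus gave 0.99, 0.17 and -0.78, and no direction can be given for Cd151 as a gene. The suffix letters f, i and r mark probe sets that the array maker designed under relaxed rules, f for sets that may also bind related sequences.

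Cd63 was not detected above the filter and was not tested. Its probe set, 160493_at, read 1.45, 1.11, 1.75 and 4.92 on HY_high arrays 1 to 4, 1.51, 2.32, 1.21 and 2.15 on HY_low arrays, and 2.95, 1, 1 and 2.09 on OT1 arrays. Its mean of 1.74 lay just under the filter, which stood at an intensity of 1.76. Group ranges overlapped, and no ratio is given at this level.

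In the genome, 3 of the members lie near another tetraspanin gene. In the gene order of GRCm38.p6, Cd81 is next to Tspan32, Cd82 is next to Tspan18, and Cd151 has Tspan4 within 5 genes. Tspan32, a tetraspanin of blood cells, read 9.52, 24.5, 23.6 and 31.2 on HY_high arrays, against 8.71, 7.24, 16.0 and 15.8 on OT1 arrays. HY_high was higher within all 4 numbers, at 0.86 ± 0.49 (SE), and did not pass in limma. Tspan4 read 22.7, 5.88, 9.07 and 14.2 on HY_high arrays, 2.59, 6.53, 2.70 and 14.7 on HY_low arrays, and 23.4, 3.69, 17.6 and 16.7 on OT1 arrays. Its differences were 1.17 ± 0.67 for HY_high against HY_low and -1.31 ± 0.67 for HY_low against OT1, and neither passed.

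Of 24 listed tetraspanins outside the 7, 13 are on the array and 9 were tested, and 0 passed in limma in any comparison, with or without the block. None had an unadjusted p under 0.05, against 2.96%, 2.65% and 4.08% of all tested probe sets. Median differences of the 9 were 0.20 for HY_high against HY_low, 0.21 for HY_low against OT1 and 0.05 for HY_high against OT1. Rom1, a tetraspanin of photoreceptors, averaged 3.97 in HY_high and 2.24 in HY_low, and Tspan33 averaged 1.77 and 2.76, both near the lower end of the scale. Tspan31 averaged 6.25 in HY_high and 4.33 in OT1, and Tspan6 averaged 2.76 and 2.06.

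Proteins that tetraspanins gather were listed as partners. Of 36 listed, 35 are on the array and 28 were tested. Of all tested probe sets, 0.023% passed in limma for HY_high against HY_low, 0.023% for HY_low against OT1 and 0.173% for HY_high against OT1. Of the 28 partners, 0 rose and 1 fell for HY_high against HY_low, and 0 passed for HY_low against OT1. For HY_high against OT1 0 partners rose and 1 fell, the same gene. That gene was Cd8b1, the beta chain of the Cd8 coreceptor, which read 8.18, 1, 6.18 and 8.26 on HY_high arrays, 172, 698, 1042 and 1374 on HY_low arrays, and 219, 835, 1032 and 1219 on OT1 arrays. No HY_high array came near the others, and the differences were -7.15 ± 0.75 against HY_low, with adjusted p = 2.5e-04, and -7.26 ± 0.75 against OT1, with adjusted p = 6.8e-05. At an unadjusted p under 0.05 there were 3, 1 and 2 of the 28 partners in the 3 comparisons, against 2.96%, 2.65% and 4.08% of all tested probe sets. The medians of the list were -0.03, 0.12 and -0.03, and those of all tested probe sets were 0.01, 0.01 and 0.02.

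With the replicate block, 2 more partners passed for HY_high against OT1, where 1.36% of all tested probe sets passed. Kit, the stem cell factor receptor, read 2.95, 56.6, 17.6 and 28.7 on HY_high arrays and 2.27, 4.66, 1 and 1.90 on OT1 arrays, a difference of 3.01 ± 0.72 with adjusted p = 0.204 without the block and 0.00731 with it. HY_high array 1 lay within the OT1 range and the other 3 HY_high arrays lay above it, and array 1 was also the lowest HY_high array for Cd9. Kit passed under 4 of 23 alternatives, which were the block, array weights and leaving out HY_high array 1 or all arrays of number 1, and the difference ran from 1.45 with a floor at 8 to 3.89. Without HY_high array 1 it was 3.85, with adjusted p = 0.00588 in limma and no block. Cd2, an adhesion receptor of T cells, read 268, 49.8, 84.6 and 73.5 on HY_high arrays and 279, 99.3, 231 and 236 on OT1 arrays, with a difference of -1.05 ± 0.55 and adjusted p = 0.0402 with the block and no pass without it. Igsf8, a direct partner of Cd9 and Cd81, averaged 8.65 in HY_low and 19.9 in OT1, a difference of -1.20 ± 0.53 that did not pass. The integrin chain Itga4 averaged 13.3 in HY_high and 5.86 in OT1, and Itgb3 averaged 1.48 in HY_high and 3.73 in HY_low. Cd74, the invariant chain of MHC class II, averaged 3.16 in HY_low and 6.58 in OT1, and none of these 3 passed.

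Genes of the endosome and exosome route that Cd63, Cd9 and Cd81 travel were the third list. All 20 of 23 that are on the array were tested, and 0 passed in limma in any comparison, with or without the block, while 0, 1 and 0 had an unadjusted p under 0.05. The list's medians were 0.02, 0.06 and 0.22. Tsg101, which sorts cargo into endosomal vesicles, read 8.12, 9.52, 8.95 and 5.89 on HY_low arrays and 4.29, 1.03, 7.36 and 3.44 on OT1 arrays, a difference of 1.30 ± 0.59 that did not pass. Sdcbp, the adaptor syntenin, averaged 14.2 in HY_high and 7.89 in HY_low, and Vps4b, an ATPase of vesicle budding, averaged 48.7 in HY_high and 27.5 in HY_low. The syndecan Sdc4, which syntenin binds, averaged 2.66 in HY_low and 1.18 in OT1. Lamp2, of the lysosomal membrane, averaged 9.46 in HY_high and 5.60 in OT1, Sdc1 averaged 2.24 in HY_high and 1.47 in OT1, and Hexa, a lysosomal enzyme, averaged 22.1 in HY_low and 28.8 in OT1.

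The labelled cells were checked against marker lists, because Cd9 is also known on platelets, endothelium, B cells and myeloid cells. Of 15 thymocyte markers, 12 are on the array and 9 had a mean over the 12 arrays above 8. These were Cd3d, Cd3e, Cd3g, Thy1, Cd2, Cd5, Cd8a, Cd8b1 and Zap70, while Cd4, Rag1 and Ptcra were below it. The summed intensity of the 12 genes was 1154 to 2515 on HY_high arrays, 2860 to 4092 on HY_low arrays and 2652 to 3360 on OT1 arrays. HY_high lay below the other groups without overlap, and for HY_high array 1 this rested on Cd8b1. With Cd8b1 taken off, the sums of the 11 other genes were 1153 to 2507 in HY_high, 2361 to 3049.7 in HY_low and 1817 to 2648 in OT1. HY_high array 1 then lay within the ranges of both other groups. HY_high arrays 2 to 4, at 1153, 1704 and 1289, still lay below every array of both. Within each array number HY_high was lower than HY_low and OT1. Of the 12, 3 had a higher mean in HY_high than in OT1, and the median difference was -0.41 on the log2 scale. These 3 were the Cd3 chains, with means of 98.3 and 87.3 for Cd3d, 48.0 and 41.5 for Cd3e, and 231 and 184 for Cd3g. Against HY_low, 1 of the 12 was higher in HY_high, and the median difference was -0.55. The Cd3 chains were not among those higher there, with HY_low means of 101 for Cd3d, 57.2 for Cd3e and 273 for Cd3g. Cd8b1 alone fell in limma, with log2 differences of -7.15 against HY_low and -7.26 against OT1. With the replicate block Thy1 also fell, with adjusted p = 0.0126 against HY_low and 0.00564 against OT1, as did Cd2 against OT1. Thus 2 of 12 fell in the first comparison and 3 in the second. Of all tested probe sets, 0.345% and 1.36% passed with the block in these comparisons, and 0.023% and 0.173% without it. The part of cell makeup in the Cd9 difference was not tested.

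Markers of other cells were mostly at low levels. For platelets and megakaryocytes 0 of 5 on the array had a mean above 8, the sums were 8.43 to 15.9 in HY_high, 9.95 to 26.8 in HY_low and 7.37 to 23.3 in OT1, and Gp1bb was under 2 on every array. For endothelium it was 0 of 8, with sums of 18.4 to 35.5, 16.2 to 25.9 and 17.6 to 32.3 in HY_high, HY_low and OT1, and Cdh5 was under 2 on every array. Macrophages and dendritic cells had 2 of 21 above 8, Cst3 and Ctss, with sums of 199 to 617 in HY_high, 188 to 654 in HY_low and 146 to 365 in OT1. Within array numbers 1 to 4 HY_high lay above OT1, at 199, 617, 528 and 408 against 146, 365, 265 and 199. HY_low lay above OT1 within each number as well, and the order of the HY groups was mixed. Ctss was the brightest of the 21 on every array. B cells had 2 of 10, Cd79b and Ighm, with sums of 168 to 542 in HY_high, 96.9 to 648 in HY_low and 101 to 1020.2 in OT1. Blk averaged above 8 in HY_high only, at 14.6, against 4.17 in HY_low and 5.09 in OT1. It read 7.67, 1.20, 152.58 and 32.67 on HY_high arrays 1 to 4. NK cells had 2 of 7, Klrd1 and Gzmb, and the sums of the 7 were 154 to 372 in HY_high, 37.2 to 163 in HY_low and 160 to 259 in OT1. Within array numbers 1 to 4 these sums were higher in HY_high than in HY_low, at 154, 272, 282 and 372 against 143, 37.2, 90.9 and 163. Against OT1 the order was mixed. Thymic epithelium and mesenchyme had 2 of 18, Col1a1 and Col1a2, granulocytes had 1 of 10, Csf3r, and erythroid cells had 0 of 5. The ranges of these 3 sums overlapped between all groups. Cdh1 averaged above 8 in OT1 only, at 8.29, and Klf1 in HY_low only, at 8.47. Within each array number HY_high had lower platelet and megakaryocyte sums than HY_low, and lower erythroid sums than OT1. No gene of the 8 lists outside thymocytes passed in limma without the block. With it, 1.36% of all tested probe sets passed for HY_high against OT1, and 1 gene of these lists rose there. That was Ctss, the protease cathepsin S, which read 103, 528, 437 and 325 on HY_high arrays 1 to 4, 93.4, 583, 264 and 209 on HY_low arrays, and 81.2, 288, 192 and 106 on OT1 arrays, with a difference of HY_high from OT1 of 1.004 ± 0.61 and adjusted p = 0.0275 with the block. Like Cd9, Ctss was lowest at number 1 and highest at number 2 in every group. That order is not particular to Ctss. Rab5a of the endosome list had it too, and how many tested probe sets share it was not counted. The part of these cells in the Cd9 values was not tested.

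**Figure D4:**
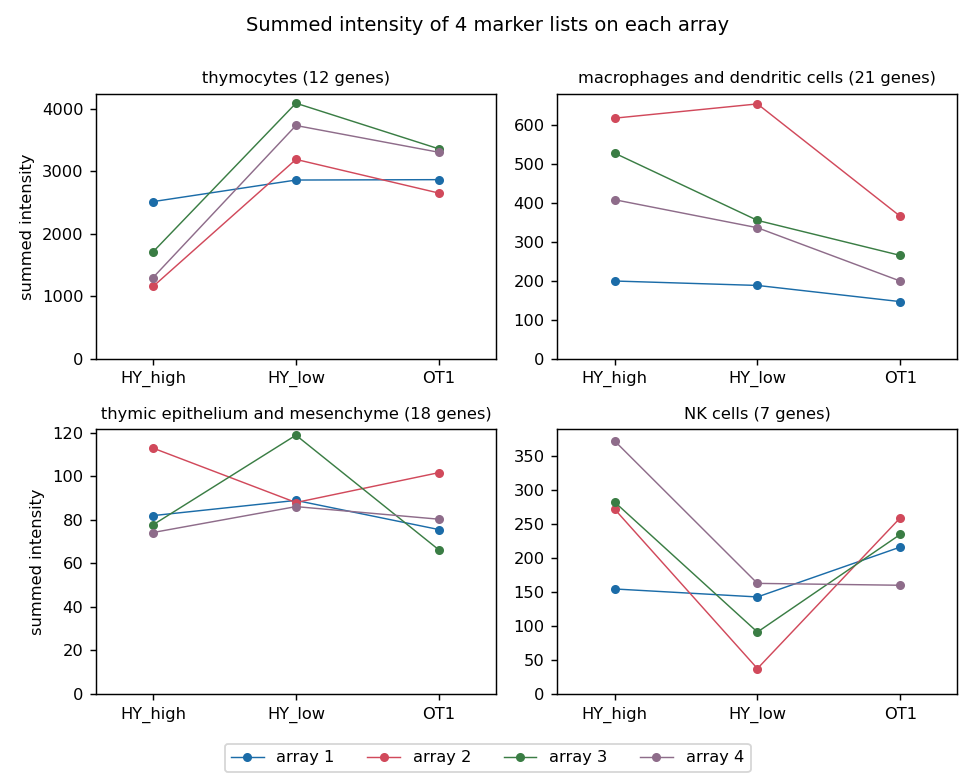
Summed intensity (linear axis from 0) of 4 marker lists on each array, with groups along the horizontal axis and a line joining the arrays of 1 number. The thymocyte sums of the 4 HY_high arrays, 1154 to 2515, lie below those of HY_low and OT1. With Cd8b1 taken off, HY_high array 1 lies within the ranges of both groups and HY_high arrays 2 to 4 stay below them. The macrophage and dendritic cell sums overlap between groups, but within each array number HY_high lies above OT1. The NK cell sums lie higher in HY_high than in HY_low within each number.

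The genes whose pattern was most like that of Cd9 were sought among 2124 tested probe sets with a mean log2 value of at least 4, taking 1 per gene. With each array number's mean taken off, the highest Pearson correlations over the 12 arrays were 0.98 for Slc25a53, 0.96 for Rnf149, 0.96 for Vps54, 0.94 for Psen2, 0.93 for Rbms1, 0.91 for Smpdl3a, 0.91 for Bcl2l11 and 0.91 for Kmt2a. All 8 had their highest group mean in HY_high, which follows from choosing them by their correlation with Cd9. Vps54, of a complex that returns vesicles from endosomes to the Golgi, averaged 243 in HY_high, 97.9 in HY_low and 66.2 in OT1. Psen2, a catalytic subunit of gamma-secretase, averaged 37.2, 12.6 and 10.1 in the same order of groups, and Bcl2l11, the proapoptotic protein Bim, averaged 87.2, 30.7 and 32.0. Among members, Cd53 reached 0.72 and Cd82 99584_at 0.58 on this measure.

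Over the 12 arrays as they stand, the highest were 0.91 for Rnf149, 0.90 for Bcl2l11, 0.87 for Serinc3, 0.87 for Rnf181, 0.84 for Degs1, 0.84 for Ccdc50, 0.84 for Evi2a and 0.83 for AW112010. Rnf149, a membrane ubiquitin ligase, and Bcl2l11 were in both sets of 8. Rnf149 averaged 45.3 in HY_high, 25.3 in HY_low and 25.5 in OT1, so that, as with Cd9, HY_low and OT1 lay close together. These correlations rest on 12 arrays that share groups and numbers, and are descriptions without a test.

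**Figure D5:**
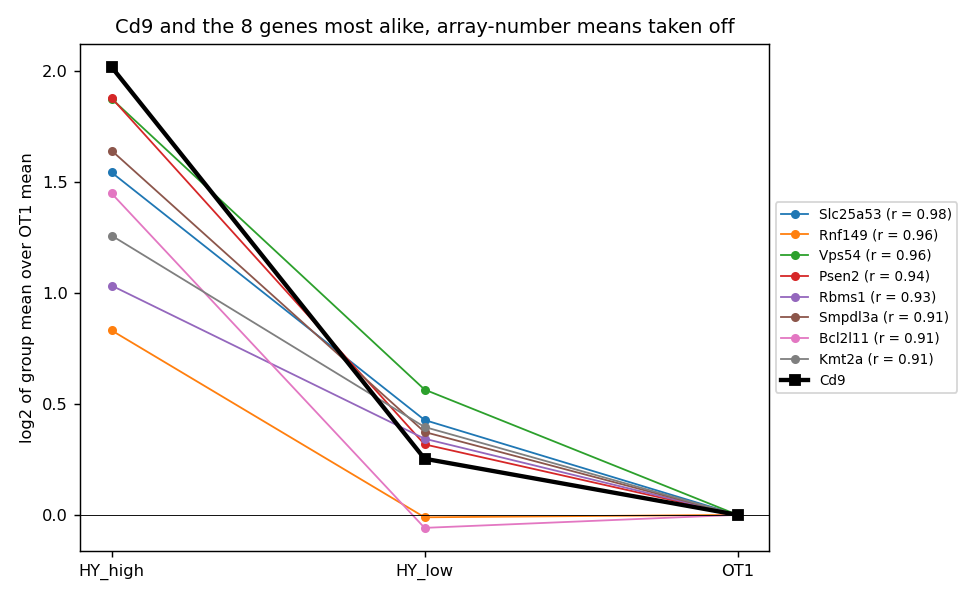
Log2 of each group's geometric mean over that of OT1 for Cd9 (thick black line) and the 8 genes most correlated with it once array-number means are taken off. Cd9 stands at 2.02 in HY_high and 0.25 in HY_low, and all 8 other genes are highest in HY_high, as follows from the way they were chosen.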

How the data were processed

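Total RNA of 12 RTOC thymocyte samples was measured on Affymetrix mouse arrays. The authors deposited 1 linear intensity per probe set and array. The software and scaling behind it are not stated by the labels or the file headers, and no value lies below 1. The table holds 12488 probe sets, and 66 controls were left out. Probe sets were named from the platform's annotation, which gave 1 gene for 10833, several for 396 and none for 1193. Median intensities were 3.33 to 3.97 per array, and precision is limited by having 4 arrays per group.

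Intensities were log2-transformed without further scaling. Probe sets with a mean above the 30th percentile, 8695 in all, were fitted with limma 3.58.1 (lmFit, contrasts.fit, eBayes with trend) in R 4.3.3, with group as the term, all 12 arrays in 1 fit and 9 residual degrees of freedom. P-values are two-sided and were adjusted by Benjamini and Hochberg's method over the 8695, with a threshold of 0.05. The scripts were tested on simulated data. Same-numbered arrays of different groups deviated together, since each of 12 such pairs had r of 0.34 to 0.59, against -0.40 to 0.16 for the 36 other pairs. The number was therefore treated as pairing the arrays in a second fit with a replicate block, which left 6 residual degrees of freedom. Each SE, and each interval given without naming the block, is from the fit without it and so includes the spread between numbers.

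The members and gene lists were chosen with earlier results of these data known. Named genes are all members, each list's genes past the threshold with or without the block, up to 3 more per list and comparison by smallest p, and the 8 most correlated with Cd9 by each measure. The alternatives tried were the block, quantile normalization, median scaling, a floor at 8, no filter, no trend, array weights and arrays left out. Figures were drawn with matplotlib 3.10.9.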

Additional observations from a re-analysis of the deposited data

Results flagged for a closer look

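In 3 of 32 groups of 4 arrays, 1 array of a tetraspanin probe set stood far from the other 3 by Dixon's test at the 95% level. In 2 of the 3 the other arrays were tied at the lowest value in the files, so that any other value would stand apart and the test says nothing there. This leaves 1 of 30 groups, and chance flags about 1 in 20, or 1.5 of 30. For Cd82 99584_at, OT1 array 1 read 23.28, against 13.5 to 14.4 on the other OT1 arrays. For Cd82 161861_i_at, HY_high array 2 read 1.13 and OT1 array 3 read 1.24, with every other array of both groups at 1. None of the 3 belongs to Cd9.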

How the results depend on the processing

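The Cd9 difference kept its sign under all 23 alternatives, at 1.31 to 2.18 for HY_high against HY_low, 0.01 to 0.70 for HY_low against OT1 and 1.58 to 2.44 for HY_high against OT1. Cd9 was chosen by its HY_high against HY_low difference, so these ranges are a description. The block, no filter, no trend and leaving out an array of the group outside a comparison cannot change a difference of group means. For the 8 other tested probe sets of the family, 0 of 552 values under the alternatives passed the threshold, the lowest adjusted p was 0.146, and 15 of 24 differences changed sign at least once, in 50 values. Cd8b1 passed under every alternative in both of its comparisons, at -8.07 to -6.31 for HY_high against HY_low and -8.10 to -6.42 for HY_high against OT1. Kit passed in 4 of 23, at 1.45 to 3.89, and Cd2 in 1 of 23, at -1.54 to -0.73, both for HY_high against OT1. The numbers of probe sets called over all 8695 moved more. With the replicate block, on paired arrays, they were 30, 8 and 118, against 2, 2 and 15 without it, and with array weights 7, 4 and 64. For HY_high against HY_low the count was 1 with median scaling, 4 with a floor at 8 and 1 with no filter, and for HY_high against OT1 it was 8 with a floor at 8 and 6 with no filter. Leaving out 1 array, or the 3 arrays of 1 number (added after seeing the data), gave 1 to 4 for HY_high against HY_low, 2 to 3 for HY_low against OT1 and 3 to 17 for HY_high against OT1. In the first, 4 came without HY_low array 1, and 1 came without any single HY_high array, HY_low array 2, 3 or 4, OT1 array 3 or 4, or number 2, 3 or 4. In the last, leaving out OT1 array 2, 3 or 4 gave 6, 9 and 7, leaving out HY_high array 2, 3 or 4 gave 7, 6 and 9, and leaving out number 1, 2, 3 or 4 gave 9, 8, 3 and 3. The cause was not tested.

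Signs turned with array weights for Cd37 in HY_high against OT1, at -0.16, for Cd81 in HY_high against HY_low, at -0.044, for Cd82 99585_at in HY_high against OT1, at 0.29, and for Cd151 161823_r_at in HY_high against HY_low, at 0.11. With a floor at 8 they turned in HY_low against OT1 for Cd82 99585_at, at -0.15, and Cd151 97930_f_at, at -0.11. For Cd151 97932_f_at in HY_high against HY_low the value was -0.038 with quantile normalization and -0.035 with median scaling. With arrays left out, sign changes gave these ranges. HY_high against HY_low ran from -0.73 to 0.52 for Cd37, -0.15 to 0.59 for Cd81, -0.060 to 0.52 for Cd82 99584_at, -0.85 to 0.32 for Cd151 161823_r_at and -0.084 to 0.10 for Cd151 97932_f_at. HY_low against OT1 ran from -0.26 to 0.93 for Cd37, -0.051 to 0.64 for Cd53, -0.18 to 0.56 for Cd81, -0.016 to 0.60 for Cd82 99584_at, -0.40 to 0.60 for Cd82 99585_at, -1.10 to 0.072 for Cd151 161823_r_at and -0.40 to 0.52 for Cd151 97930_f_at. HY_high against OT1 ran from -0.38 to 0.73 for Cd37, -0.61 to 0.38 for Cd82 99585_at and -0.18 to 0.57 for Cd151 97930_f_at. Values near the low end of the scale, as for Cd63 and 2 probe sets of Cd82 and Cd151, limit what the arrays can show.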
